A study of Arabidopsis thaliana with 3 samples.

Results

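VANDAL elements are a group of Mutator-like DNA transposons of Arabidopsis thaliana, and the regions described here are the differentially methylated regions whose repeat annotation names VANDAL elements and no other repeat. The deposited tables of 24-nt small RNA levels held 4481 distinct regions in 6 methylation classes. In 431 of them every repeat name began with VANDAL, and these were kept, while gene identifiers listed beside the repeats were ignored. The other 4050 regions are used for comparison only. The 431 regions carried 25 VANDAL names, 2 of them carried names of 2 families at once, and they lay in 234 annotated copies. Of these copies, 150 contributed 1 region and 16 contributed at least 5, so regions of a copy share their source and are not replicates.

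Small RNA was sequenced from total RNA of seedlings, 10 days old and grown in vitro, with 1 library for each of 3 genotypes. The first genotype was ddb2-3, labelled with the insertion line DsLoxHs195_05H, which affects DDB2, a factor that recognises damaged DNA in global genome repair. The second was nrpd1a, labelled Salk_583051, which affects the main catalytic subunit of RNA polymerase IV (Pol IV). The third was WT, of the Col accession. Each mutant is a single allele. The series asks how repair factors bear on DNA methylation, so ddb2-3 was set against WT, and nrpd1a against WT gives the level left without Pol IV. The transcripts of DDB2 and NRPD1 are not measured by these tables.

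Plants silence transposons through RNA-directed DNA methylation. Pol IV and an RNA-dependent RNA polymerase make double-stranded RNA, DCL3 cuts it into 24-nt siRNAs, and AGO4-bound siRNAs guide methylation of cytosines in the CG, CHG and CHH contexts, where H is any base but G. VANDAL elements mostly lack long terminal inverted repeats. Some of them encode an anti-silencing protein, VANC, which lowers the methylation of copies of its own family by binding short motifs that these copies carry. Names ending in N1, such as VANDAL2N1, mark separate repeat families in the annotation.

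Levels are the authors' RPM values, 1 per region and library, which express reads relative to a read total of the library. Every value was a whole multiple of the worth of 1 read, which was 0.120 RPM in ddb2-3, 0.727 RPM in nrpd1a and 0.169 RPM in WT. These steps correspond to totals of 8345931, 1376239 and 5913669 reads in the same order of libraries, so the nrpd1a total is the smallest and a single read weighs most there. Which reads these totals count is not stated, so they need not be the sequencing depth. If the counted kind of read itself differs between the genotypes, every ratio between libraries is shifted, the share left in nrpd1a included. That was not tested. The bracketed ranges below are 95% Clopper-Pearson (exact binomial) intervals, computed from the whole reads. They cover counting error only, compare libraries and not genotypes, and are too narrow where a read with several genomic hits was counted at each. No difference has a replicate check, since each genotype has 1 library. In seedling RNA, fewer cells that make an siRNA and less siRNA per cell cannot be told apart.

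Among the regions, 5 stood apart by sequence. They hold an uninterrupted run of at least 16 bases of alternating G and A, or of T and C on the other strand, called a GA run here, and they are shown first because the summed VANDAL level turns on them. Each line gives the family, the window in TAIR10.1 coordinates on the forward strand and the RefSeq sequence, with the longest run in capitals.
VANDAL21 chr2:3110704-3110923: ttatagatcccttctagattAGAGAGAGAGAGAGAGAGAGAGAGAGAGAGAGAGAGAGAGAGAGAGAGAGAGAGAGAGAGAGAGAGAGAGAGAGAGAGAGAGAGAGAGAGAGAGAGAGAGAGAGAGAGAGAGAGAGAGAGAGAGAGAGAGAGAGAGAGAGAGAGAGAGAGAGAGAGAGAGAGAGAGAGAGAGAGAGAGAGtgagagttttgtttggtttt
VANDAL21 chr3:12779324-12779484: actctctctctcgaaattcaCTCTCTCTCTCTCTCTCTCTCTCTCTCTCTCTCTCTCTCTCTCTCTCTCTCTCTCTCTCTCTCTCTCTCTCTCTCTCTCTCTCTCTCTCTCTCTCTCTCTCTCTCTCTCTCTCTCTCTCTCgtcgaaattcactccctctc
VANDAL17 chr1:13108901-13109000: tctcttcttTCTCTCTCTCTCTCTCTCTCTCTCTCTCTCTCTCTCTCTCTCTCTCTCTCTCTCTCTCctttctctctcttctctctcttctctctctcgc
VANDAL21 chr3:11409454-11409553: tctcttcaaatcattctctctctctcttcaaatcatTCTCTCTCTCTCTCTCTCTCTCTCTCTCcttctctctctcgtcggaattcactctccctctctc
VANDAL17 chr5:14182701-14182800: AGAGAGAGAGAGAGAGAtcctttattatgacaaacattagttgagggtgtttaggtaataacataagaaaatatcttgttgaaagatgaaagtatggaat
The runs were 180, 121, 58, 28 and 17 bp long in the order printed. Those of 180, 121 and 28 bp lie in VANDAL21 and the others in VANDAL17. All 5 were CHH-hyper regions within 3 Mb of a centromere.

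The longest run lies in the region chr2:3110501-3111000, which overlaps no annotated gene. It had 325 RPM in ddb2-3, 0 RPM in nrpd1a and 66.1 RPM in WT, a ddb2-3 to WT ratio of 4.91 (4.42 to 5.48). This is the highest ddb2-3 level of any VANDAL region. The VANDAL21 region chr3:12779201-12779600, in an exon of the pseudogene or transposon gene AT3G31406, had 193 RPM in ddb2-3, 0 RPM in nrpd1a and 40.8 RPM in WT, a ratio of 4.74 (4.14 to 5.45). The VANDAL17 region chr1:13108901-13109000 lies in an intron of ARF14, an auxin response factor gene (AT1G35540). It had 65.5 RPM in ddb2-3, 0 RPM in nrpd1a and 13.0 RPM in WT, a ratio of 5.03 (3.96 to 6.48). These 3 regions hold the longest runs and the highest ratios of the 5.

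The 2 shorter runs had lower ratios than the 3 longer ones, though not in the order of their lengths. The VANDAL21 region chr3:11409301-11409600 had 20.1 RPM in ddb2-3, 0 RPM in nrpd1a and 9.47 RPM in WT, a ratio of 2.13 (1.56 to 2.93). In chr5:14182701-14182800, a VANDAL17 region 1623 bp upstream of AT5G36080, the level was 12.0 RPM in ddb2-3, 0 RPM in nrpd1a and 3.72 RPM in WT, a ratio of 3.22 (2.01 to 5.37). No nrpd1a read fell in any of the 5, where 1 read would have given 0.727 RPM.

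Summed over the 5 regions, the level was 616 RPM in ddb2-3, 0 RPM in nrpd1a and 133 RPM in WT, a log2 ratio of ddb2-3 to WT of 2.21 (2.10 to 2.32). GA runs outside VANDAL elements, in 11 regions, had sums of 1110 RPM in ddb2-3, 2.18 RPM in nrpd1a and 298 RPM in WT, a log2 ratio of 1.90 (1.82 to 1.97). The 24-nt words of a pure GA run are not particular to these places. The most frequent of them occurs at 4013 sites of the genome, organelles and both strands included, so a read of that sequence cannot be placed at one site by its letters. The share of 24-nt words that are unique in the genome was 32.9%, 46.4%, 31.2%, 63.2% and 100% in the order of the printed runs. How reads with several hits were counted is not given in the sources used here, and its part in these values was not tested.

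Over all 431 VANDAL regions the sums were 7912 RPM in ddb2-3, 90.8 RPM in nrpd1a and 7311 RPM in WT. The log2 ratio of the ddb2-3 to the WT sum was 0.11 (0.10 to 0.13). Without the 5 GA-run regions the sums were 7296 RPM in ddb2-3, 90.8 RPM in nrpd1a and 7177 RPM in WT, and the log2 ratio was 0.02 (0.01 to 0.04). The median region of the whole series had a ddb2-3 to WT ratio of 0.20 on the log2 scale, and relative to it the VANDAL sum was at -0.08.

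By region, ddb2-3 levels ran from 0.479 to 325 RPM with a median of 7.55 RPM, nrpd1a levels from 0 to 5.81 RPM with a median of 0, and WT levels from 0.169 to 254 RPM with a median of 6.59 RPM. The ddb2-3 level was above WT in 273 regions (63.3%) and below it in 158, against 63.4% above WT among all distinct regions, so the VANDAL share is that of the series. On the scale of log2(RPM + 1), which understates differences of weakly covered regions, the median difference between ddb2-3 and WT was 0.17 over the VANDAL regions and 0.17 over all distinct regions. All 431 regions reached 1 RPM in at least 1 library and entered the count of differences. At 2-fold or more on that scale, 24 VANDAL regions (5.57%) were higher in ddb2-3, against 5.22% of all distinct regions, and 2 (0.464%) were lower, against 1.67%. Both shares describe these libraries, and the share of higher regions lies near that of all regions.

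**Figure D1:**
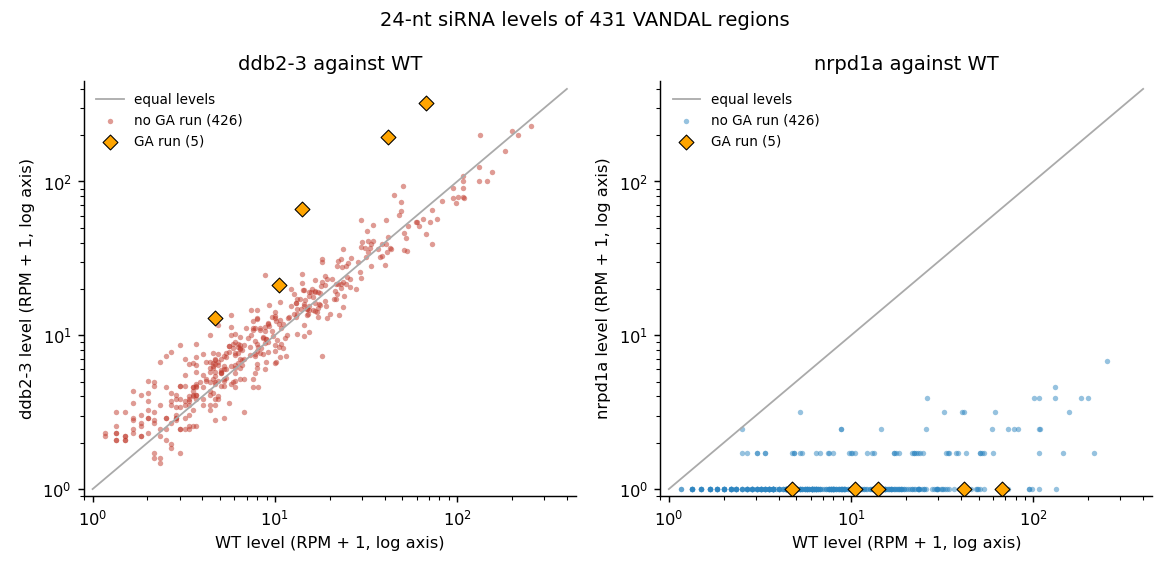
Level of each of the 431 VANDAL regions in ddb2-3 (left) and nrpd1a (right) against WT, as RPM + 1 on log axes, with the line of equal levels. Diamonds mark the 5 regions with a GA run, which lie above the line in ddb2-3 and at 0 RPM in nrpd1a; 358 regions have no nrpd1a read.

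The plot of levels against WT shows that ddb2-3 followed WT along the line of equal levels, apart from the GA-run regions. The other 19 regions past 2-fold higher were weakly covered, with 0.338 to 7.78 RPM in WT. The strongest of them was the VANDAL1 region chr2:2031801-2032000, 1154 bp upstream of AT2G05540, with 23.6 RPM in ddb2-3, 0 RPM in nrpd1a and 7.78 RPM in WT, a ratio of 3.03 (2.19 to 4.28). It is the one VANDAL region of the CG-hyper class and is CHG-hyper as well. Just inside the 2-fold limit lay a GA-run VANDAL21 region at 1.01, and just outside it were a VANDAL17 and a VANDAL1 region, both at 0.99.

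Ranked by their mean over the 3 libraries and cut into 4 groups of 107 or 108 regions, the regions differed in how often ddb2-3 was above WT. The median log2(RPM + 1) difference was 0.25 in the weakest group, then 0.27 and 0.14, and -0.05 in the strongest group. In the strongest group 50 of 108 regions were above WT, compared with 75 of 107 in the weakest. Position differed as well, with 70.1% of the weakest and 51.9% of the strongest group within 3 Mb of a centromere. In the strongest group the median was 0.13 over these 56 regions and -0.15 over the 52 on arms. In the weakest group it was 0.31 over 75 such regions and 0.20 over 32 on arms. Outside VANDAL elements the median was 0.17 in the weakest group, then 0.20 and 0.23, and 0.10 in the strongest, where 608 of 1013 regions were above WT. The 10 regions of highest WT level summed to 1516 RPM in ddb2-3, 23.3 RPM in nrpd1a and 1648 RPM in WT, and 8 of the 10 were below WT in ddb2-3. Picking regions by WT level, the denominator of the ratio, favours ratios below 1, so this count is no independent sign of a lower level.

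For 3 of the regions where ddb2-3 was at or below WT the sequence is given, since they mark the highest WT level, the lowest ratio of all VANDAL regions and the lowest ratio among the regions in the top 25% by level. They are printed in lower case throughout, because no part of them was singled out, and none of them holds a GA run.
VANDAL6 chr3:17432801-17433100: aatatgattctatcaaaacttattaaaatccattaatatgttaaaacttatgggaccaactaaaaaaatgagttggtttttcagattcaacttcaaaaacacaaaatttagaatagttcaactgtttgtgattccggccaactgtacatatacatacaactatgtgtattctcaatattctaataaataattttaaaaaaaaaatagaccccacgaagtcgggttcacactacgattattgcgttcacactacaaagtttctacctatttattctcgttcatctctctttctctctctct
VANDAL20 chr1:21470201-21470365: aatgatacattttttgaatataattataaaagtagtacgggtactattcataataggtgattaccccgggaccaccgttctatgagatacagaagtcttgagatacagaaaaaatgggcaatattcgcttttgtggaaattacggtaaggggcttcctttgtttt
VANDAL22 chr2:14458501-14458571: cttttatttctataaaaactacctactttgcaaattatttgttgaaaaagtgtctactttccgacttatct
The VANDAL6 region chr3:17432801-17433100, on the arm of chromosome 3, had 230 RPM in ddb2-3, 5.81 RPM in nrpd1a and 254 RPM in WT. Its ratio of ddb2-3 to WT was 0.908 (0.849 to 0.972), so the libraries were close there.

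The lowest ratio of all belonged to a VANDAL20 region, chr1:21470201-21470365, which lies 1696 bp upstream of CAT2 (AT1G58030), a gene for a cationic amino acid transporter. It had 6.35 RPM in ddb2-3, 0 RPM in nrpd1a and 17.2 RPM in WT, a ratio of 0.368 (0.259 to 0.518). Of its 24-nt words 97.2% were unique in the genome. The other region past 2-fold lower, VANDAL3 in an untranslated exon of AT4G30825 (chr4:15012501-15012600), had 2.16 RPM in ddb2-3, 0 RPM in nrpd1a and 5.75 RPM in WT.

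Among the strongly covered regions the VANDAL22 region chr2:14458501-14458571, 117 bp upstream of AT2G34238, was lowest, with 38.5 RPM in ddb2-3, 0 RPM in nrpd1a and 71.9 RPM in WT, a ratio of 0.535 (0.462 to 0.620). The next lowest were a VANDALNX2 region (chr1:12476901-12477000) at 12.6 RPM in ddb2-3, 0.727 RPM in nrpd1a and 21.6 RPM in WT, and a VANDAL3 region (chr3:12315201-12315300) at 14.3 RPM in ddb2-3, 0 RPM in nrpd1a and 22.7 RPM in WT. A VANDAL2 region in an intron of the pseudogene or transposon gene AT3G42730 (chr3:14845401-14845500) had 34.5 RPM in ddb2-3, 0 RPM in nrpd1a and 52.4 RPM in WT. A VANDAL6 region (chr5:14826316-14826400) had 44.8 RPM in ddb2-3, 0 RPM in nrpd1a and 66.6 RPM in WT. These 5 low regions came from 5 families, 3 of them in pericentromeres and 2 on arms.

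Of the 25 families, 14 had at least 10 regions. The summed ddb2-3 level was above WT in 9 of the 14 and below it in 5. With ddb2-3 scaled so that the median region of the series had a ratio of 1, 3 of the 14 were above WT, and VANDAL1N1 (-0.03), VANDAL2 (-0.12), VANDAL2N1 (-0.12) and VANDAL8 (-0.04) changed direction. VANDAL21, with 24 regions, stood highest at 745 RPM in ddb2-3, 0.727 RPM in nrpd1a and 291 RPM in WT, a log2 ratio of 1.36 (1.28 to 1.43). Without its 3 GA-run regions it had 206 RPM in ddb2-3, 0.727 RPM in nrpd1a and 175 RPM in WT, a log2 ratio of 0.24 (0.13 to 0.35). VANDAL17, with 10 regions, had 129 RPM in ddb2-3, 0 RPM in nrpd1a and 58.2 RPM in WT, a log2 ratio of 1.15 (0.98 to 1.33). Without its pair of GA-run regions this was 0.32 (0.09 to 0.55), from 51.8 RPM in ddb2-3, 0 RPM in nrpd1a and 41.4 RPM in WT. Relative to the median region of the series these values without GA runs were 0.04 in VANDAL21 and 0.12 in VANDAL17.

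**Figure D2:**
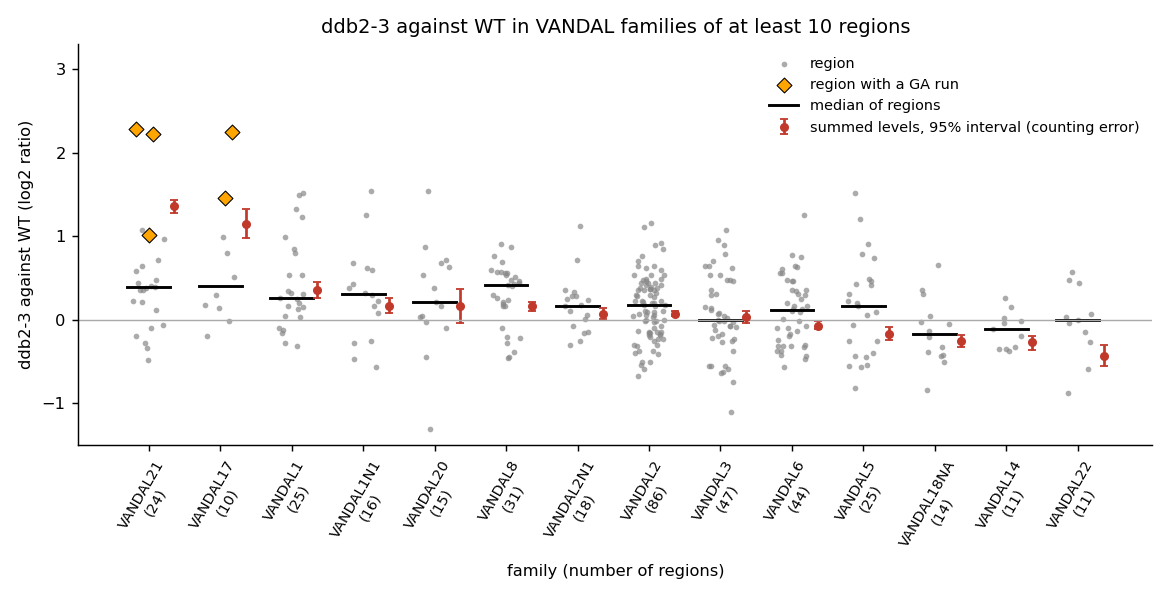
Log2 ratio of ddb2-3 to WT in the 14 VANDAL families of at least 10 regions. Grey points are single regions and black bars their medians, both on log2(RPM + 1), diamonds are regions with a GA run, and red points are the ratio of summed RPM with its 95% interval for counting error. VANDAL21 and VANDAL17 hold all 5 diamonds and the highest summed ratios, 1.36 and 1.15, and VANDAL22 has the lowest, -0.43.

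Among the families of at least 10 regions, VANDAL1, with 25 regions, was the highest of those without GA runs, with 320 RPM in ddb2-3, 3.63 RPM in nrpd1a and 250 RPM in WT, a log2 ratio of 0.36 (0.26 to 0.45). In VANDAL1, 20 of 25 regions (80.0%) were above WT and 4 (16.0%) were past 2-fold higher, against 63.4% and 5.22% of all distinct regions. Of the 25, 22 lay within 3 Mb of a centromere, with 81.8% above WT and 18.2% past 2-fold higher. Regions outside VANDAL elements at such positions had 73.2% and 6.50%. VANDAL8, with 31 regions, had 861 RPM in ddb2-3, 6.54 RPM in nrpd1a and 771 RPM in WT, a log2 ratio of 0.16 (0.11 to 0.21), or 0.05 (-0.01 to 0.11) without its region chr3:15638701-15639169. Its median difference of 0.42 was larger than that of its sum, and 24 of its 31 regions (77.4%) were above WT. Of these 31 regions, 26 lay within 3 Mb of a centromere, with 84.6% above WT.

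The largest families lay close to WT. VANDAL2, with 86 regions in 23 copies, had 1616 RPM in ddb2-3, 7.27 RPM in nrpd1a and 1535 RPM in WT, a log2 ratio of 0.07 (0.04 to 0.11). VANDAL3, with 47 regions, had 543 RPM in ddb2-3, 4.36 RPM in nrpd1a and 532 RPM in WT, a log2 ratio of 0.03 (-0.04 to 0.10), which turned to -0.10 (-0.17 to -0.03) without the region chr2:5200801-5200900. VANDAL6, with 44 regions, had 1131 RPM in ddb2-3, 16.7 RPM in nrpd1a and 1183 RPM in WT, a log2 ratio of -0.07 (-0.11 to -0.02), or -0.03 (-0.08 to 0.02) without the region chr1:8453501-8453600. In VANDAL6 25 of the 44 regions were above WT and the median difference was 0.12, so the median and the sum differed in sign. The log2 ratio was 0.17 (0.08 to 0.26) in VANDAL1N1, 0.16 (-0.04 to 0.37) in VANDAL20, or 0.54 (0.31 to 0.78) without its region near CAT2, and 0.07 (0.01 to 0.14) in VANDAL2N1, whose WT sums were 282, 55.3 and 564 RPM.

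Another 4 families lay further below WT in ddb2-3 than VANDAL6 did. VANDAL22, with 11 regions, had 126 RPM in ddb2-3, 2.18 RPM in nrpd1a and 169 RPM in WT, a log2 ratio of -0.43 (-0.55 to -0.30), with 6 of the 11 regions above WT, and without the region chr2:14458501-14458571 alone it was -0.15 (-0.31 to 0.01). VANDAL14, with 11 regions, had 277 RPM in ddb2-3, 9.45 RPM in nrpd1a and 335 RPM in WT, a log2 ratio of -0.27 (-0.36 to -0.19). VANDAL18NA, with 14 regions, had 352 RPM in ddb2-3, 11.6 RPM in nrpd1a and 420 RPM in WT, a log2 ratio of -0.26 (-0.33 to -0.18), and 10 of its 14 regions were below WT. VANDAL5, with 25 regions, had 400 RPM in ddb2-3, 2.91 RPM in nrpd1a and 449 RPM in WT, a log2 ratio of -0.17 (-0.24 to -0.09), although 15 of its 25 regions were above WT.

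The 11 families under 10 regions held little of the signal. VANDALNX2 had the largest WT sum of them, with 121 RPM in ddb2-3, 3.63 RPM in nrpd1a and 129 RPM in WT over 2 regions. The highest ratio was that of VANDAL9, whose 5 regions were all above WT and summed to 11.9 RPM in ddb2-3, 0 RPM in nrpd1a and 5.07 RPM in WT, a log2 ratio of 1.23 (0.62 to 1.87).

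In most families the region of highest WT level was not higher in ddb2-3. This choice by WT level, the denominator of the ratio, favours ratios below 1 with 1 library each. The intervals below do not allow for that choice. For VANDAL2 it was chr1:9691201-9691257, 371 bp upstream of AT1G27820, with 100 RPM in ddb2-3, 0.727 RPM in nrpd1a and 144 RPM in WT. For VANDAL18NA it was chr1:12286701-12286800, with 114 RPM in ddb2-3, 2.18 RPM in nrpd1a and 155 RPM in WT. For VANDAL5 it was chr3:11715201-11715294, with 72.0 RPM in ddb2-3, 0 RPM in nrpd1a and 97.2 RPM in WT. The intervals of these 3 ratios, 0.699 (0.634 to 0.769), 0.737 (0.673 to 0.808) and 0.741 (0.659 to 0.832), lay below 1.

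The same held, by a smaller margin, for VANDAL8 at chr3:7274701-7274766, with 158 RPM in ddb2-3, 2.91 RPM in nrpd1a and 182 RPM in WT, and for VANDAL1N1 at chr1:10156601-10156790, with 42.1 RPM in ddb2-3, 0.727 RPM in nrpd1a and 51.2 RPM in WT. In VANDAL1 the region was chr1:10152801-10152900, with 64.0 RPM in ddb2-3, 1.45 RPM in nrpd1a and 71.4 RPM in WT, and the interval of its ratio, 0.897 (0.788 to 1.02), held 1. For VANDAL3 it was chr2:4526101-4526200, with 56.4 RPM in ddb2-3, 0 RPM in nrpd1a and 63.8 RPM in WT, a ratio of 0.885 (0.771 to 1.02).

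VANDAL21 is described region by region, because it is the family with the highest ddb2-3 to WT sum and because its VANC protein, VANC21, is known to bind a short motif in VANDAL21 copies. That motif was searched on both strands as CAGTATTAC, CAGTATTAT, TAGTATTAC and TAGTATTAT, which share the core AGTATTA. Among regions of 100 bp, the motif was present in 5 of 19 VANDAL21 regions (26.3%), in 1 of 323 regions of other VANDAL families (0.310%) and in 4 of 3201 regions outside VANDAL elements (0.125%). The core alone was in 6 of 19 (31.6%), 4 of 323 (1.24%) and 47 of 3201 (1.47%). The 5 VANDAL21 regions are shown because they carry the motif of their family, in capitals, on the forward strand of TAIR10.1.
VANDAL21 chr2:1512201-1512300: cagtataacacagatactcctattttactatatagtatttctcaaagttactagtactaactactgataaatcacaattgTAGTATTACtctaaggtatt
VANDAL21 chr2:4868801-4868900: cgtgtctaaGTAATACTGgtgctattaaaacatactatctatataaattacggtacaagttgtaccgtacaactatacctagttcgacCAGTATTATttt
VANDAL21 chr2:10009101-10009200: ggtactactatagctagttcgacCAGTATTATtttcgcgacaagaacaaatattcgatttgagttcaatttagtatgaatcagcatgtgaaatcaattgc
VANDAL21 chr3:11541801-11541900: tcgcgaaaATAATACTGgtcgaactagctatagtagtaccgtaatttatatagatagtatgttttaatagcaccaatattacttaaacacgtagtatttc
VANDAL21 chr3:12779001-12779100: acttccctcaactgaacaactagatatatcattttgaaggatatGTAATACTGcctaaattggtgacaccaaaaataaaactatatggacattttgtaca
A capital run that begins with G or A and ends with G is the motif read on the other strand. A match is a sequence of letters and not a measured binding site. In chr2:4868801-4868900, chr2:10009101-10009200 and chr3:11541801-11541900 a motif site stands in the same flanking sequence, on one strand or the other. These regions share 22.1%, 22.1% and 44.2% of their 24-nt words with other VANDAL regions. The 5 regions are therefore not separate occurrences of the motif, and the 26.3% counts related sequence more than 1 time.

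Levels over the 5 motif regions were modest, and none had an nrpd1a read. In chr2:10009101-10009200 the level was 11.9 RPM in ddb2-3, 0 RPM in nrpd1a and 10.8 RPM in WT. In chr3:11541801-11541900, 252 bp upstream of AT3G29690, it was 10.9 RPM in ddb2-3, 0 RPM in nrpd1a and 8.12 RPM in WT. In chr2:1512201-1512300, in an intron of the pseudogene or transposon gene AT2G04330, it was 3.71 RPM in ddb2-3, 0 RPM in nrpd1a and 4.06 RPM in WT. Only the second printed region, chr2:4868801-4868900, held 2 motif sites, and its level was 2.88 RPM in ddb2-3, 0 RPM in nrpd1a and 3.89 RPM in WT. The last, chr3:12779001-12779100, lies in the same annotated copy as the GA-run region chr3:12779201-12779600 and had 4.79 RPM in ddb2-3, 0 RPM in nrpd1a and 2.71 RPM in WT. The interval of the ddb2-3 to WT ratio held 1 in each of the 5.

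**Figure D3:**
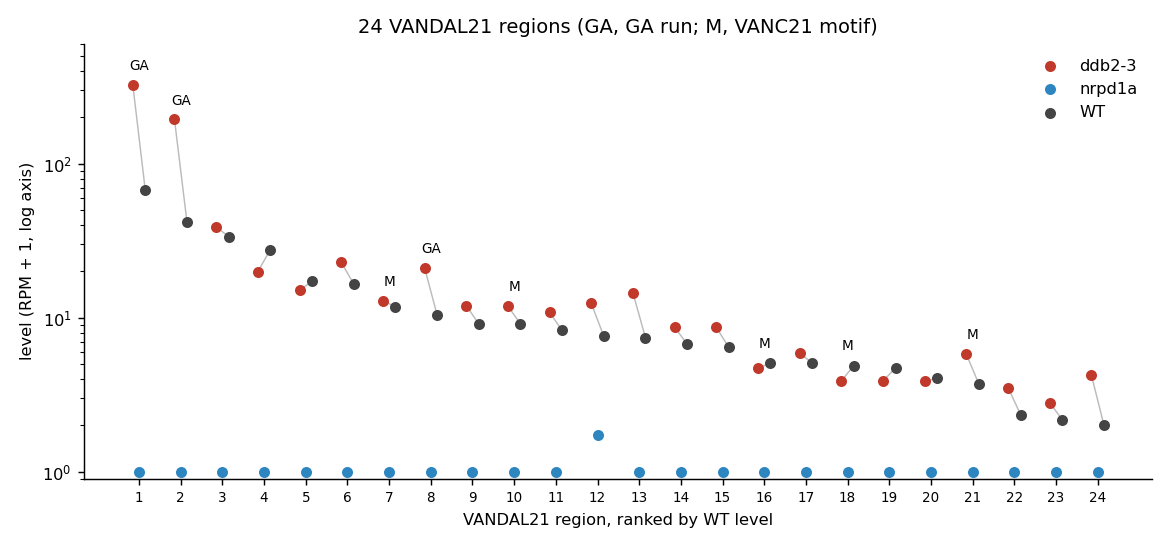
Level of the 24 VANDAL21 regions in ddb2-3, nrpd1a and WT, as RPM + 1 on a log axis, with regions ranked by WT level from left to right. GA marks the 3 regions with a GA run and M the 5 with the VANC21 motif; the first 2 GA regions reach 325 and 193 RPM in ddb2-3, and 1 region has an nrpd1a read.

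A VANDAL21 copy on the arm of chromosome 2 includes AT2G23480, AT2G23490 and AT2G23500, which are annotated as pseudogenes or transposon genes. Each of the 3 genes had a VANDAL21 region in it or within 2 kb upstream, which follows in part from their place inside a VANDAL21 copy. None of 23 other listed genes had a VANDAL region in it or within 2 kb upstream. Most of these 23 are genes for DNA methylation and demethylation factors, and DDB2 and NRPD1 are among them. The share over all genes was not counted, so the 2 lists are not a contrast. In an exon of AT2G23480, the region chr2:10002201-10002300 had 18.9 RPM in ddb2-3, 0 RPM in nrpd1a and 26.7 RPM in WT, a ratio of 0.709 (0.565 to 0.889). The region chr2:10005701-10005800 near AT2G23490 had 7.67 RPM in ddb2-3, 0 RPM in nrpd1a and 5.41 RPM in WT, a ratio of 1.42 (0.913 to 2.24). The third is the motif region chr2:10009101-10009200 near AT2G23500, with a ratio of 1.10 (0.792 to 1.53). So 1 of the 3 regions was lower in ddb2-3 beyond counting error.

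Elsewhere in VANDAL21, a copy on chromosome 3 had 4 regions, one of them the motif region near AT3G29690. Its strongest region, chr3:11546701-11546800, had 21.9 RPM in ddb2-3, 0 RPM in nrpd1a and 15.6 RPM in WT, a ratio of 1.41 (1.09 to 1.83). On chromosome 4, chr4:5567801-5567900 had 38.0 RPM in ddb2-3, 0 RPM in nrpd1a and 32.6 RPM in WT, the highest level of the family outside GA runs. Also on chromosome 4, chr4:3889201-3889300 had 13.5 RPM in ddb2-3, 0 RPM in nrpd1a and 6.43 RPM in WT, a ratio of 2.11 (1.45 to 3.13). The one VANDAL21 region past 2-fold higher without a GA run, chr4:3449101-3449200, had 3.24 RPM in ddb2-3, 0 RPM in nrpd1a and 1.01 RPM in WT. The only nrpd1a read of the family fell in chr2:1505601-1505700, which had 11.4 RPM in ddb2-3, 0.727 RPM in nrpd1a and 6.59 RPM in WT. In all, 18 of the 24 VANDAL21 regions were above WT in ddb2-3, against 63.4% of all distinct regions. Without the 3 GA-run regions this was 15 of 21. Within 3 Mb of a centromere, 15 of 18 VANDAL21 regions were above WT, GA-run regions included. Regions outside VANDAL elements at such positions had 73.2%. On arms 3 of 6 VANDAL21 regions were above WT, against 49.1% outside VANDAL elements. The part of position in the family count was not tested.

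The ddb2-3 to WT ratio of the VANDAL regions differed with position along the chromosome. The 268 regions within 3 Mb of a centromere, called pericentromeric, summed to 4200 RPM in ddb2-3, 33.4 RPM in nrpd1a and 3373 RPM in WT, a log2 ratio of 0.32 (0.29 to 0.34). The 163 regions on the arms summed to 3712 RPM in ddb2-3, 57.4 RPM in nrpd1a and 3937 RPM in WT, a log2 ratio of -0.09 (-0.11 to -0.06). Without GA runs the pericentromeric log2 ratio was 0.15 (0.12 to 0.17). In the pericentromeres 186 of 268 regions were above WT, 19 were past 2-fold higher and 0 past 2-fold lower. These are 69.4% above WT and 7.09% past 2-fold higher, near the 73.2% and 6.50% of pericentromeric regions outside VANDAL elements. Of those outside regions 0.958% were past 2-fold lower. On the arms 87 of 163 (53.4%) were above WT, 5 (3.07%) were past 2-fold higher and 2 (1.23%) past 2-fold lower. Arm regions outside VANDAL elements had 49.1% above WT, 3.28% past 2-fold higher and 3.03% past 2-fold lower. Regions outside VANDAL elements had log2 ratios of 0.30 (0.29 to 0.30) in pericentromeres and -0.05 (-0.06 to -0.04) on arms, so the split is not particular to VANDAL elements.

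**Figure D4:**
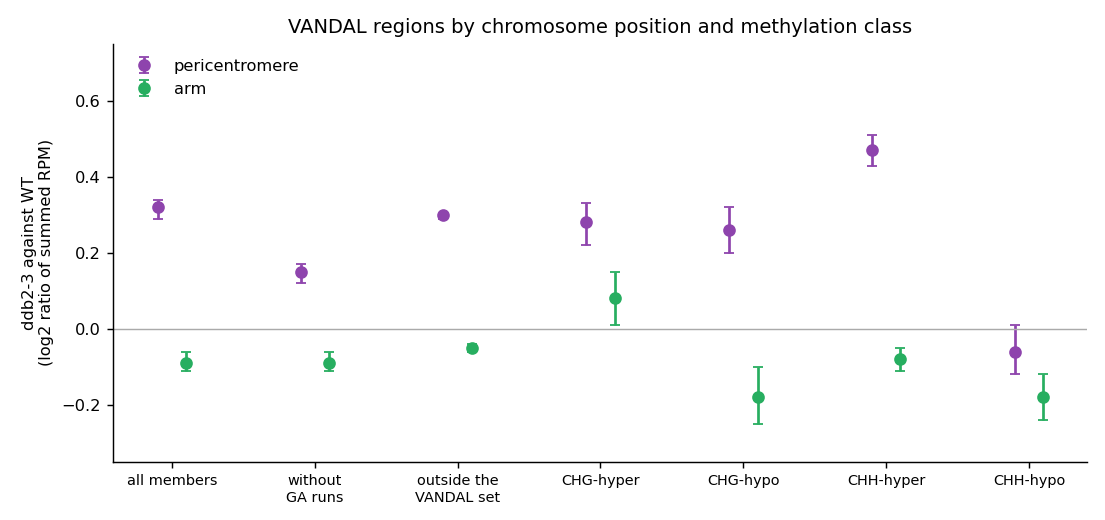
Log2 ratio of summed RPM, ddb2-3 to WT, with 95% intervals for counting error, for pericentromeric (left of each pair) and arm regions. The pairs are all VANDAL regions, those without GA runs, regions outside the VANDAL set, and the VANDAL regions of 4 methylation classes; the pericentromeric value lies above the arm value in each of the 7 pairs.

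Families followed the split to different extents. VANDAL8 had a log2 ratio of 0.38 (0.31 to 0.45) over 26 pericentromeric regions and -0.22 (-0.31 to -0.13) over 5 arm regions. VANDAL20 had 0.74 (0.43 to 1.06) over 9 pericentromeric regions and -0.34 (-0.62 to -0.06) over 6 arm regions, one of which is the lowest region near CAT2. Without that region the other 5 summed to 21.2 RPM in ddb2-3, 1.45 RPM in nrpd1a and 17.6 RPM in WT, and the arm value turned to 0.27 (-0.09 to 0.63). VANDAL3 had 0.09 (0.01 to 0.16) over 32 pericentromeric regions, or -0.08 (-0.16 to 0.00) without chr2:5200801-5200900, and -0.15 (-0.29 to -0.01) over 15 arm regions. In VANDAL18NA and VANDAL5 the pericentromeric and arm values were close, at -0.27 and -0.24 in VANDAL18NA and at -0.16 and -0.17 in VANDAL5. The pericentromeric values rested on the region of highest WT level in each, since without it they were -0.06 (-0.20 to 0.09) in VANDAL18NA and 0.01 (-0.12 to 0.14) in VANDAL5. The other main families of the pericentromere, VANDAL2 and VANDAL1, had 0.11 (0.06 to 0.16) over 60 regions and 0.53 (0.42 to 0.65) over 22 regions.

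By methylation class, 177 VANDAL regions were CHH-hyper, 125 CHG-hyper, 75 CHG-hypo and 62 CHH-hypo, and the CG-hyper and CG-hypo classes held 1 each. A region in 2 classes, as 10 were, counts in each. Which genotypes were compared to define the classes is not given in the sources used here. CHG-hyper regions summed to 1403 RPM in ddb2-3, 9.45 RPM in nrpd1a and 1216 RPM in WT, a log2 ratio of 0.21 (0.16 to 0.25), compared with 0.38 (0.37 to 0.40) in CHG-hyper regions outside VANDAL elements. CHG-hypo regions summed to 1064 RPM in ddb2-3, 13.8 RPM in nrpd1a and 995 RPM in WT, a log2 ratio of 0.10 (0.05 to 0.14). With the median region of the series scaled to a ratio of 1, CHG-hyper was at 0.01 (-0.04 to 0.05) and CHG-hypo turned to -0.10 (-0.15 to -0.05).

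The CHH-hyper regions held most of the VANDAL level, with 4521 RPM in ddb2-3, 57.4 RPM in nrpd1a and 4097 RPM in WT, a log2 ratio of 0.14 (0.12 to 0.17). Without the 5 GA-run regions it was -0.02 (-0.05 to 0.00), from 3905 RPM in ddb2-3, 57.4 RPM in nrpd1a and 3964 RPM in WT. CHH-hypo regions summed to 1109 RPM in ddb2-3, 15.3 RPM in nrpd1a and 1206 RPM in WT, a log2 ratio of -0.12 (-0.16 to -0.08), compared with -0.02 (-0.03 to -0.01) outside VANDAL elements. The single CG-hypo region, a VANDAL2 at chr2:6337401-6337500, had 5.27 RPM in ddb2-3, 0 RPM in nrpd1a and 3.55 RPM in WT.

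The pericentromeric value was above the arm value within each of the 4 CHG and CHH classes. In CHG-hypo it was 0.26 (0.20 to 0.32) in pericentromeres and -0.18 (-0.25 to -0.10) on arms. In CHH-hyper it was 0.47 (0.43 to 0.51) in pericentromeres and -0.08 (-0.11 to -0.05) on arms. Without the 5 GA-run regions the pericentromeric CHH-hyper value was 0.09 (0.05 to 0.13). In CHH-hypo it was -0.06 (-0.12 to 0.01) in pericentromeres and -0.18 (-0.24 to -0.12) on arms.

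By gene context, 220 VANDAL regions overlapped an annotated pseudogene or transposon gene, 65 lay within 2 kb upstream of a protein-coding gene, 12 overlapped a protein-coding gene and 134 did none of these. Regions in pseudogenes or transposon genes summed to 2861 RPM in ddb2-3, 14.5 RPM in nrpd1a and 2383 RPM in WT, a log2 ratio of 0.26 (0.23 to 0.29), or 0.19 (0.16 to 0.22) without their GA-run region. Of these regions 71.4% were pericentromeric. Upstream regions summed to 1824 RPM in ddb2-3, 29.1 RPM in nrpd1a and 1942 RPM in WT, a log2 ratio of -0.09 (-0.13 to -0.06), and 36.9% of them were pericentromeric, so context and position cannot be told apart from these sums. Outside VANDAL elements the same contexts had log2 ratios of 0.34 (0.33 to 0.35) and -0.04 (-0.05 to -0.03).

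The 12 regions in protein-coding genes comprised 4 in coding exons, 6 in introns and 2 in untranslated exons. Their log2 ratio was 0.47 (0.35 to 0.58), and 0.08 (-0.05 to 0.21) without the GA run in ARF14. The VANDAL3 region chr2:1012601-1012700 in an intron of AT2G03330 had 35.6 RPM in ddb2-3, 0 RPM in nrpd1a and 35.7 RPM in WT, the highest WT level in a protein-coding gene.

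VANDAL levels were low in nrpd1a throughout, as far as its read total and the worth of 1 read allow. The 90.8 RPM left in nrpd1a were 1.24% (1.03 to 1.48) of the WT sum, compared with 3.75% (3.63 to 3.87) over the regions outside VANDAL elements. These sums are 125 reads in nrpd1a and 43232 reads in WT for the VANDAL regions. Outside VANDAL elements the highest region had 463 RPM in nrpd1a, and the share differed by gene context. It was 1.45% in pseudogenes or transposon genes, 2.09% upstream of protein-coding genes, 10.4% in protein-coding genes and 4.99% elsewhere. In VANDAL elements the shares were 0.610%, 1.50%, 0.457% (from 1 read) and 1.65% in the same order. No nrpd1a read fell in 358 of the 431 regions (83.1%, against 77.1% of all distinct regions), a single read fell in 48, and the largest number was 8 reads. At 2-fold or more on log2(RPM + 1), 398 VANDAL regions (92.3%) were lower in nrpd1a, against 92.9% of all distinct regions. Weak regions limit the share, since with 1 RPM added a region under 1 RPM in WT cannot reach 2-fold lower. Of the 33 regions that missed the limit, 8 had an nrpd1a read. Adding 0.5 RPM instead gave 419 lower regions, and adding 2 RPM gave 361. Of the 83 regions whose WT level was at least 10 times the nrpd1a floor of 3 reads (2.18 RPM), 82 were under 10% of WT in nrpd1a, against 978 of 1012 among all distinct regions.

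The lower bounds were large where WT was high. The VANDAL8 region chr3:15638701-15639169 had 199 RPM in ddb2-3, 0 RPM in nrpd1a and 132 RPM in WT, so nrpd1a was at least 60.5-fold lower than WT with 3 reads as its floor, or at least 49.1-fold lower by the 95% interval. It was also 1.51-fold higher (1.38 to 1.64) in ddb2-3 than in WT. The VANDAL2 region chr3:8857901-8858000 had 0 RPM in nrpd1a and 106 RPM in WT, at least 48.6-fold lower in nrpd1a by the same floor, or 39.4-fold by the interval. A VANDAL6 region in the pseudogene or transposon gene AT2G23720 (chr2:10089901-10090000) had 201 RPM in ddb2-3, 0.727 RPM in nrpd1a and 215 RPM in WT, its nrpd1a value being 1 read.

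The highest nrpd1a levels were low in absolute terms. The VANDAL6 region on chromosome 3 with 254 RPM in WT had the most, 5.81 RPM from 8 reads. Next was a VANDAL14 region at chr3:9735901-9736151, with 99.9 RPM in ddb2-3, 3.63 RPM in nrpd1a and 130 RPM in WT, its nrpd1a value being 5 reads. Another 6 regions tied at 2.91 RPM, which is 4 reads. Among them was the VANDAL14 region chr1:7353001-7353100, with 78.6 RPM in ddb2-3, 2.91 RPM in nrpd1a and 100 RPM in WT. VANDAL2N1 regions at that level lay at chr1:20683401-20684000, with 124 RPM in ddb2-3, 2.91 RPM in nrpd1a and 131 RPM in WT, and at chr2:7289217-7289600, with 213 RPM in ddb2-3, 2.91 RPM in nrpd1a and 199 RPM in WT. The regions with 8 and 5 reads were on chromosome arms, and of the 6 regions with 4 reads, 4 were on arms and 2 in pericentromeres.

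**Figure D5:**
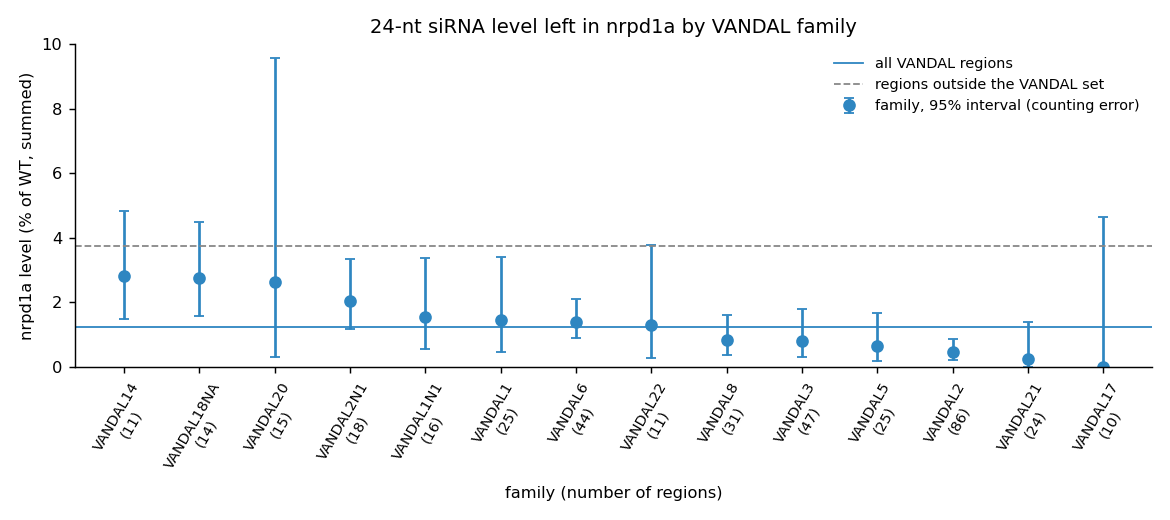
Summed nrpd1a level as a percentage of WT in the 14 VANDAL families of at least 10 regions, with 95% intervals for counting error. The lines mark 1.24% over all VANDAL regions and 3.75% over regions outside the VANDAL set; family values run from 2.82% in VANDAL14 down to 0 in VANDAL17.

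By family the share of the WT level left in nrpd1a was 2.82% (1.50 to 4.84) in VANDAL14, 2.77% (1.58 to 4.50) in VANDAL18NA and 2.06% (1.18 to 3.35) in VANDAL2N1. It was 0.473% (0.227 to 0.871) in VANDAL2 and rested on 1 read in VANDAL21, with an upper bound of 1.39%. VANDAL17 had 0 nrpd1a reads, with an upper bound of 4.63%. The intervals of VANDAL14, VANDAL18NA and VANDAL2N1 did not overlap that of VANDAL2. They rest on 13, 16 and 16 nrpd1a reads, against 10 in VANDAL2. In VANDAL14, 5 and 4 of the reads fell in chr3:9735901-9736151 and chr1:7353001-7353100, which hold no unique 24-nt word. A read counted at several regions makes these intervals too narrow, so their lack of overlap is no test of the families. Pericentromeric regions kept 0.991% (0.725 to 1.32) and arm regions 1.46% (1.15 to 1.82) of WT. These intervals overlap in part, which does not show that the values are equal. Outside VANDAL elements the order was the other way, at 5.08% (4.88 to 5.27) in pericentromeres and 2.50% (2.37 to 2.64) on arms.

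Uniqueness of sequence differed among the regions. The median region had 31.2% of its 24-nt words at a single genomic site, 119 regions had none, and 55 had at least 90%. Over these 55 regions the sums were 648 RPM in ddb2-3, 2.18 RPM in nrpd1a and 534 RPM in WT, a log2 ratio of 0.28 (0.22 to 0.34). A large part of these sums is the VANDAL8 region chr3:15638701-15639169, with 199 RPM in ddb2-3, 0 RPM in nrpd1a and 132 RPM in WT. Its own ddb2-3 to WT ratio was 1.51, and the ratio of the sums without it was not computed. Over the 119 regions with no unique word they were 2428 RPM in ddb2-3, 27.6 RPM in nrpd1a and 2511 RPM in WT, a log2 ratio of -0.05 (-0.08 to -0.02). Outside VANDAL elements the order was the other way, at 0.04 (0.02 to 0.06) over 719 regions with at least 90% unique words and 0.14 (0.13 to 0.15) over 699 with none. Of the 55 regions 45 were pericentromeric, and of the 119 regions 61 were, so uniqueness and position overlap, and the part of each in these sums was not tested.

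Among copies with at least 5 regions, the values spread on both sides of WT. A VANDAL8 copy in the pericentromere of chromosome 1 with 6 regions had 98.4 RPM in ddb2-3, 0 RPM in nrpd1a and 66.6 RPM in WT, a log2 ratio of 0.56 (0.39 to 0.74). In a VANDAL2 copy in the pericentromere of chromosome 4, all 7 regions were above WT, and the sums were 153 RPM in ddb2-3, 0 RPM in nrpd1a and 113 RPM in WT, a log2 ratio of 0.44 (0.30 to 0.58). The lowest was a VANDAL6 copy on the arm of chromosome 5 with 5 regions, at 104 RPM in ddb2-3, 2.91 RPM in nrpd1a and 134 RPM in WT, a log2 ratio of -0.36 (-0.50 to -0.22), or -0.08 (-0.38 to 0.22) without the region chr5:17901401-17901500. Another VANDAL2 copy on the arm of chromosome 1, with 6 regions, had 242 RPM in ddb2-3, 0.727 RPM in nrpd1a and 242 RPM in WT. Without chr1:9691201-9691257 that copy had 141 RPM in ddb2-3, 0 RPM in nrpd1a and 97.9 RPM in WT, a log2 ratio of 0.53 (0.38 to 0.67), so its sum was set by 1 region.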

How the data were processed

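Small RNA levels came from 6 tables per library, 3 libraries in all. The submitters' processing notes name the TAIR10 build and the tools Bowtie, bedtools and CASAVA 1.8.2, and the deposited values are RPM per region. Mapping settings, the counting of multiply mapped reads and the RPM total are not stated in these sources. All 4481 values per library came out as whole reads within 0.1 read. Regions and lists were chosen with earlier results of these data known.

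Sequences and gene annotation came from RefSeq TAIR10.1. All 431 VANDAL regions matched it, no region passed a chromosome end, and 334 of 341 gene rows in the tables overlapped the same locus there. The pericentromere was 3 Mb around rounded centromere positions from general knowledge. Region differences used log2(RPM + 1), with a filter of 1 RPM in any library and 2-fold as the size limit. No test of genotypes was possible with 1 library each. Computations used Python 3.11.15, numpy 2.4.6, pandas 2.3.3, scipy 1.17.1 and matplotlib 3.10.9. The size limit, the binomial count test and the intervals were run on simulated independent reads. That simulation held no multiply mapped reads and no variation between libraries of a genotype, so it does not check those limits.

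Named regions were, among the top 25% by highest RPM, the 5 highest and 5 lowest ddb2-3 to WT ratios and the 5 highest nrpd1a levels. To these were added the 3 lowest nrpd1a to WT ratios, the region of highest WT level per family of at least 10 regions, all VANDAL21 regions, and regions at the listed genes, 47 in all. Other regions named in the text were chosen after their values were seen.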

Additional observations from a re-analysis of the deposited data

How the results depend on the processing

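Of 210 recomputed values, 65 concerned the summary results and 47 of these stayed within the interval or within 1.5 times of the count. Of 145 values for single groups, 99 stayed within the interval, 36 lay outside it in the same direction and 10 changed direction. Many of the values that stayed could not have moved, because the setting changed no region of their group. Dropping the level filter could change nothing either, since every VANDAL region passed it. The counts are therefore no measure of robustness. Scaling ddb2-3 so that the median region had a ratio of 1 lowers log2 ratios by 0.20 by construction. The VANDAL sum then turned to -0.08, the median was 0.00, 3 of 14 families and 3 classes were above WT (9 and 5 as deposited), and VANDAL1N1 (-0.03), VANDAL2 (-0.12), VANDAL2N1 (-0.12), VANDAL8 (-0.04), CHG-hypo (-0.10), CHH-hyper (-0.06) and the regions outside genes and their upstream 2 kb (-0.11) changed direction. Without the 5 GA-run regions the sum was 0.02, the pericentromere minus arm difference 0.23 (0.40 with them), CHH-hyper -0.02 and that last context -0.05. Without the 2 regions of highest level the sum was 0.07, the difference 0.31 and that last context -0.03. A pericentromere of 2 Mb gave a difference of 0.45. A pseudocount of 0.5 RPM gave 38 regions past 2-fold higher, and 2 RPM gave 15 higher and 1 lower. Among regions of at least 10 RPM the median was 0.09, with 8 higher, 1 lower and 189 lower in nrpd1a; fewer regions enter that count. An exact binomial count test on reads, Benjamini-Hochberg adjusted at 0.05, called 60 VANDAL regions higher and 29 lower in ddb2-3, against 18.5% and 6.83% of all distinct regions; it compares the 2 libraries and not the genotypes. Leaving out of each family the region that moved its sum most, an alternative added after the values were seen, left 8 of 14 families above WT and turned VANDAL3 to -0.10. No paired analysis was possible because each genotype has 1 library. The worth of 1 read limits nrpd1a most, where it is 0.727 RPM.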
